A study of Mus musculus with 10 samples.

Results

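Collagens, laminins, nidogens, fibulins, fibrillins and fibronectin are the structural proteins from which basement membranes and matrix fibrils are assembled, and their regional expression was examined in the E11.5 mouse neocortex. The members were all probes whose only gene symbol named a collagen chain, a laminin chain, a fibrillin, a fibulin or a nidogen, or was Fn1, Sparc, Lum or Dcn. This gave 69 probes for 61 genes, of 21766 probes on the array and 15063 genes named by them.

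In the embryonic cortex the neuroepithelium rests on the pial basement membrane, a sheet of laminin trimers and type IV collagen joined by nidogens and heparan sulphate proteoglycans, to which the end feet of the progenitor cells attach. Fibrillar collagens, decorin and lumican are made mainly by mesenchymal cells, such as those of the developing meninges outside that sheet, and vessels growing into the wall bring a basement membrane of their own. In whole tissue pieces such as these, fewer cells of a type and less RNA per cell cannot be told apart.

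The study compared the caudal with the rostral end of the neocortex in an outbred mouse stock, MF1, and an inbred strain, C57, so that regional differences could be separated from strain differences. The labels name no genetic change or treatment in either, and both were sampled at E11.5. A pool held the caudal or the rostral end pieces of the cortices of 3 embryos, taken within a litter, and its cDNA was amplified before labelling. The caudal and rostral RNA of a pool were hybridised together on 2 two-colour arrays, with Cy3 and Cy5 exchanged on the second, so that the 10 arrays hold 3 MF1 pools on 6 arrays and 2 C57 pools on 4 arrays. A ratio was given for 13723 to 18288 probes on the MF1 arrays and for 20191 to 20870 on the C57 arrays, and the number of arrays limits the precision.

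Values are given as log2 of caudal over rostral RNA, with each array centred on its own median, so a positive value is a higher caudal level and a negative value a higher rostral level relative to the median probe. These ratios carry no expression level. No label states which dye is the numerator, so the direction is only likely. Deposited values were read as Cy5 divided by Cy3. On that reading Nr2f1, a nuclear receptor known for a caudal gradient, had ratios of 1.80 ± 0.28 and 0.51 ± 0.17 (SE) at its probes and Spry1, a target of rostral FGF signalling, -1.34 ± 0.15. With the opposite reading every sign would turn. Across all tested probes the 2 arrays of a pool, once turned to the same direction, had correlations of only -0.12 to 0.01, whereas arrays with the same dye order, as deposited, had correlations of -0.01 to 0.30. Markers of neuroepithelium were widely measured, with ratios on 7 to 10 of the 10 arrays for each of 20 probes, among them Emx1, Emx2, Nes and Sox2.

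Testing required a ratio in both dye orders in 2 or more pools per strain. This left 37 member probes for 36 genes, 53.6% of the members against 54.5% of all probes. None of the 37 passed an adjusted p of 0.05 in limma for the mean of both strains, and none of all 11855 tested probes did (0%). The smallest limma adjusted p was 0.706 among the members and 0.321 over all probes. At an unadjusted p under 0.05 there were 2 of 37 members (5.41%), Fbln2 and Col9a3, against 542 (4.57%) of all probes. Ratios above 0 were found for 20 of 37 members (54.1%), against 59.2% of all probes. The median member ratio was 0.04, with quartiles of -0.18 and 0.20, and the median of all tested probes was 0.04, with quartiles of -0.08 and 0.16. The typical SD of a probe over the pools was 0.42 for the members and 0.35 for all tested probes. The members' distribution was thus centred where that of all probes was, with wider quartiles. A mean ratio under 0.5 in size was found for 33 of the 37, and such ratios were not counted over all probes.

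**Figure D1:**
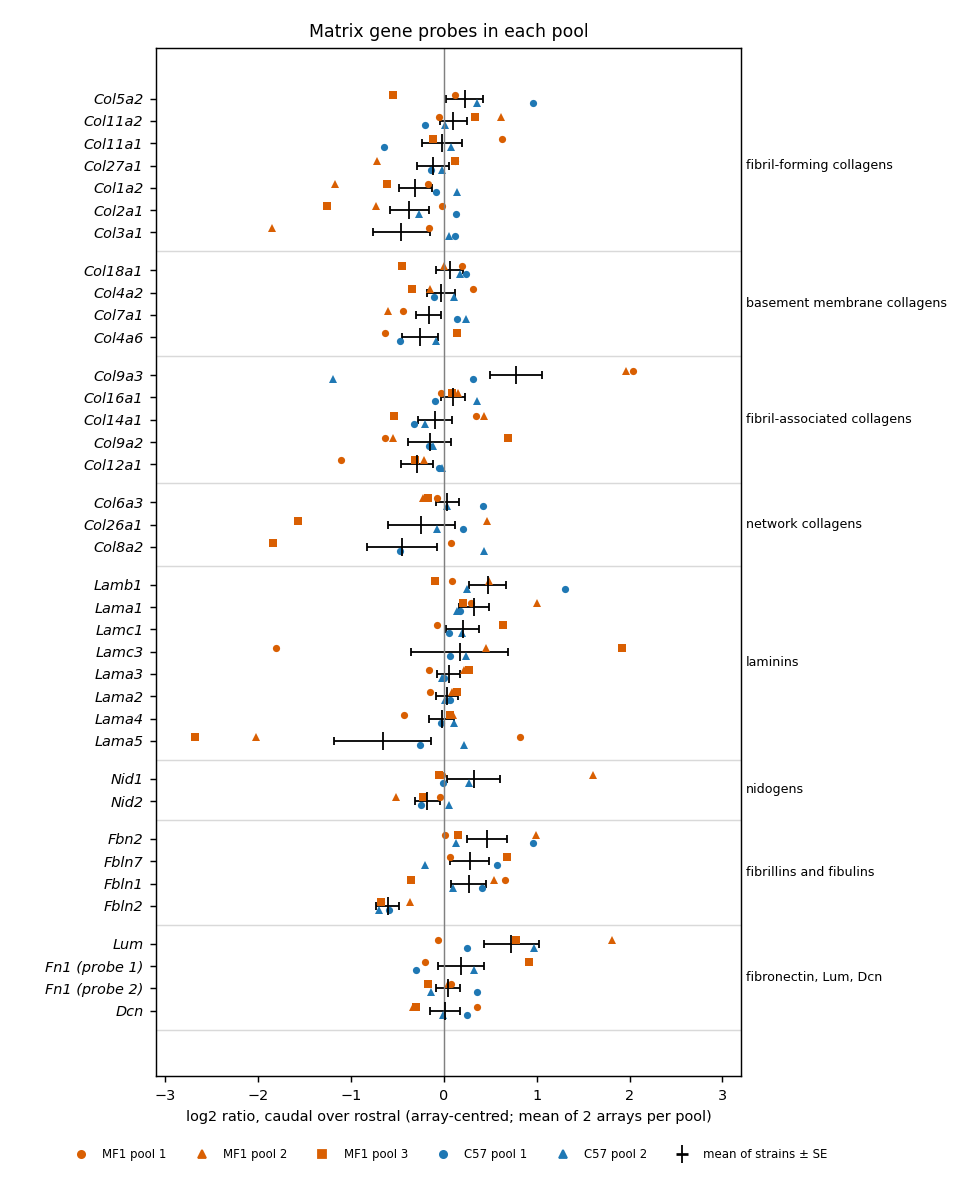
Log2 caudal over rostral ratio (x axis) of the 37 tested matrix probes, in rows by role, with MF1 pools in orange just above C57 pools in blue, and the mean of both strains with its SE as a black cross. The pools of most genes lie on both sides of 0, whereas all 5 pools of Fbln2 lie between -0.69 and -0.36.

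The member of smallest p was Fbln2, fibulin-2, a secreted glycoprotein that binds fibronectin, nidogen and laminins in basement membranes and elastic fibres. Its ratios were -0.68, -0.36 and -0.67 in the MF1 pools and -0.59 and -0.69 in the C57 pools. Every pool was thus on the rostral side, and the strains overlapped. The mean of both strains was -0.61 ± 0.12 (SE, n = 5 pools; 95% interval -0.91 to -0.31), a 1.52-fold higher rostral level (limma adjusted p = 0.706). It ranked 48 of the 11855 probes by p. Averaged over the pools, the dye orders gave nearly the same value, -0.61 with caudal RNA in Cy5 and -0.59 with caudal RNA in Cy3. Within a pool the arrays could differ, in either direction. In the same order they gave -0.09 and -1.27 in MF1 pool 1 and -0.65 and -0.08 in MF1 pool 2. The ratio was negative on all 10 arrays, from -1.27 to -0.08. Of the 26 members measured on all 10 arrays, only Fbln2 was negative on every one (3.85%, against 0.336% of all such probes), and none was positive on every one (0%, against 1.03%).

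Promoter sequences are given for Fbln2, for the laminin chain Lamb1, whose ratio was the highest of the laminins, and for Col1a2 and Col3a1, a pair of fibril-forming chains with negative MF1 ratios. They are RefSeq sequences of GRCm38.p6, each on the plus strand and 300 bases long, from 250 bases before to 50 bases after the annotated start. The windows are chr6:91212514-91212813 for Fbln2, chr12:31265043-31265342 for Lamb1, chr6:4505368-4505667 for Col1a2 and chr1:45311288-45311587 for Col3a1. Capitals mark matches to the GC box GGGCGG, the CCAAT box or the TATA box TATAAA on either strand.
Fbln2: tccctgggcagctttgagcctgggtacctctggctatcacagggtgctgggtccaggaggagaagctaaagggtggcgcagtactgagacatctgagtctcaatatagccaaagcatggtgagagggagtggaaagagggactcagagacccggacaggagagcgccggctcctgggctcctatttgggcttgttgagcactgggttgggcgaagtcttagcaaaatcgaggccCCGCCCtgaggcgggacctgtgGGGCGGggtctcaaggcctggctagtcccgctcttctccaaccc
Lamb1: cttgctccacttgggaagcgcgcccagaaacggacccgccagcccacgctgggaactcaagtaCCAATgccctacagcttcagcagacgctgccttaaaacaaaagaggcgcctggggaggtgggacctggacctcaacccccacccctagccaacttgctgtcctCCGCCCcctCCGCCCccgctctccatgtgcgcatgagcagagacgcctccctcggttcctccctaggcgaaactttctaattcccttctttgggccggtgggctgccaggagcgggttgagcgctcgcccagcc
Col1a2: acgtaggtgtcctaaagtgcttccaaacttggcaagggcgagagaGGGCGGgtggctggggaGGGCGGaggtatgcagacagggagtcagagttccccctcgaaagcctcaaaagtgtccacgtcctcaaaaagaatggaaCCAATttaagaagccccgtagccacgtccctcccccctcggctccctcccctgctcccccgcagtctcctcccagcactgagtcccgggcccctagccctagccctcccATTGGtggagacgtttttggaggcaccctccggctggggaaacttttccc
Col3a1: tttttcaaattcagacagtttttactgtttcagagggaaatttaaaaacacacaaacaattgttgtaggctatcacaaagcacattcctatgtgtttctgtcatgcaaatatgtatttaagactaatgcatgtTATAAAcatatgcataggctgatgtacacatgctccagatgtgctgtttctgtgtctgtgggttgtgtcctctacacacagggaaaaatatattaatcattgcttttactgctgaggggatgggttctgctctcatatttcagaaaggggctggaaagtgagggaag
Fbln2 held 2 GC boxes and no other match, Lamb1 held 2 GC boxes and 1 CCAAT box, and Col1a2 held 2 of each. Col3a1 held only 1 TATA box, well upstream of the annotated start, and its window had 37.7% G and C, against 60.3% to 63.7% in the others. No marked matches overlapped. A GC box was found in 35.7%, a CCAAT box in 37.4% and a TATA box in 13.6% of all 32851 promoters of this length, so these matches are common and describe only the letters of the windows.

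Laminins, the trimers that nucleate a basement membrane, had positive ratios for 6 of 8 tested probes and a median of 0.11. None of them was past an unadjusted p of 0.05 for the mean of both strains. Over all tested probes 59.2% of ratios were positive, a share to set beside the sign counts of this and the following groups. Lama1, the alpha chain of laminin-111, the first laminin of embryonic basement membranes, had ratios of 0.29, 0.999 and 0.21 in the MF1 pools and 0.18 and 0.14 in the C57 pools. All 5 pools were positive, as were 9 of the 10 arrays, and every MF1 pool lay above both C57 pools. Its mean was 0.33 ± 0.16 (limma adjusted p = 0.98), and 0.20 without MF1 pool 2. Another Lama1 probe had too few ratios to be tested, and its signs were mixed. It gave 0.51, 2.27 and -1.63 on 3 MF1 arrays and 1.53 and -0.82 on 2 C57 arrays.

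Lamb1, the beta chain of the same trimer, had ratios of 0.09, 0.49 and -0.10 in the MF1 pools and 1.31 and 0.25 in the C57 pools, with a mean of 0.47 ± 0.20 (limma adjusted p = 0.98). The strains overlapped, and the highest value was that of C57 pool 1. There the arrays differed, with -0.95 when caudal RNA was in Cy5 and 3.57 when it was in Cy3. Over all pools Lamb1 averaged -0.26 with caudal RNA in Cy5 and 1.07 with caudal RNA in Cy3. The dye orders therefore put this gene at opposite ends of the cortex, and without C57 pool 1 its mean was 0.21.

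Lamc1, the gamma chain shared by most laminins, had -0.08 and 0.63 in MF1 pools 1 and 3 and 0.06 and 0.20 in the C57 pools, and was not measured in both dye orders in MF1 pool 2. Its mean was 0.20 ± 0.18. Lama2, Lama3 and Lama4, alpha chains of muscle, epithelial and vessel laminins, lay close to 0, at 0.04, 0.05 and -0.02. Lama5, the widely expressed alpha chain that follows Lama1 in many tissues, and Lamc3, a gamma chain with a restricted expression, were, with Col9a3, the 3 members whose SD over the pools was above 1. Lama5 ranged from -2.69 to 0.82 over the pools and Lamc3 from -1.81 to 1.92. Their means were -0.66 ± 0.52 and 0.17 ± 0.53, with errors as large as or larger than most members' ratios. In MF1 pools 2 and 3 Lama5 was low on 1 array each, at -4.02 with caudal RNA in Cy3 in pool 2 and at -4.70 with caudal RNA in Cy5 in pool 3, beside partners at -0.04 and -0.67. Its mean was -1.19 without MF1 pool 1 and -0.31 without MF1 pool 3. Lamc3 was 1.02 with caudal RNA in Cy5 and -0.67 with caudal RNA in Cy3, and its mean was 0.67 without MF1 pool 1, 0.10 without MF1 pool 2 and -0.26 without MF1 pool 3.

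Among collagens of basement membranes and their attachments, 1 of 4 tested probes was positive and the median was -0.10. Col4a2, a chain of the type IV collagen network found in every basement membrane, had 0.31, -0.15 and -0.35 in the MF1 pools and -0.11 and 0.11 in the C57 pools. Its pools fell on both sides of 0 around a mean of -0.03 ± 0.15 (95% interval -0.40 to 0.33). Its partner chain Col4a1 was not tested, as it had ratios on 3 MF1 and 2 C57 arrays only. Col18a1, the source of endostatin, stood at 0.06 ± 0.14, Col4a6, a chain of a type IV network with restricted expression, at -0.26 ± 0.20, and Col7a1, the chain of epithelial anchoring fibrils, at -0.16 ± 0.14. Neither Col4a6 nor Col7a1 was negative in both dye orders: Col4a6 gave 0.05 with caudal RNA in Cy5 and -0.62 with caudal RNA in Cy3, and Col7a1 gave 0.45 and -0.51 in the same order.

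The nidogens, which link laminin to type IV collagen, had opposite signs. Nid1 had -0.02, 1.61 and -0.05 in the MF1 pools and -0.01 and 0.27 in the C57 pools. Only MF1 pool 2 and C57 pool 2 were above 0, and the mean of 0.32 ± 0.28 rested mainly on MF1 pool 2, without which it was 0.05. Nid2 had -0.04, -0.52 and -0.22 in the MF1 pools and -0.24 and 0.05 in the C57 pools, negative in 4 of 5 pools, with a mean of -0.18 ± 0.13.

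The fibril-forming collagens, the rope-like chains of connective tissue and cartilage, had negative ratios for 5 of 7 tested probes and a median of -0.12, with none past an unadjusted p of 0.05 for the mean of both strains. Col1a2, the second chain of type I collagen, had -0.18, -1.18 and -0.61 in the MF1 pools and -0.08 and 0.15 in the C57 pools. All MF1 pools lay below both C57 pools, and the mean was -0.31 ± 0.18. The dye orders gave 0.16 with caudal RNA in Cy5 and -0.92 with caudal RNA in Cy3. Col1a1, the other type I chain, had too few ratios to be tested; its 8 measured arrays had a median of 0.12 and its C57 pools -0.06 and 0.16.

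Col3a1, the chain of type III collagen of vessels and loose mesenchyme, had -0.16 and -1.85 in MF1 pools 1 and 2 and 0.12 and 0.05 in the C57 pools. The value of MF1 pool 2 came from 1 array, with -3.71 when caudal RNA was in Cy5 and 0.02 when it was in Cy3, and the mean was -0.46 ± 0.31. Col2a1, the main cartilage collagen, which is also made by embryonic neuroepithelium, had -0.02, -0.73 and -1.26 in the MF1 pools and 0.13 and -0.27 in the C57 pools. It was negative in 4 of 5 pools and on 8 of 10 arrays, and in both dye orders (-0.61 with caudal RNA in Cy5 and -0.25 with caudal RNA in Cy3), with a mean of -0.37 ± 0.21 (limma adjusted p = 0.98). The minor fibrillar chains Col11a1, Col11a2 and Col27a1 stood at -0.02, 0.10 and -0.12. Col5a2, which regulates fibril diameter, stood at 0.22 ± 0.20, with -0.14 when caudal RNA was in Cy5 and 0.53 when it was in Cy3.

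Fibril-associated collagens, which decorate the surface of fibrils, had 2 of 5 positive ratios and a median of -0.09. Col12a1 had -1.11, -0.22 and -0.31 in the MF1 pools and -0.05 and -0.02 in the C57 pools. It was negative in all 5 pools, although only slightly so in C57, and its mean was -0.29 ± 0.17 (limma adjusted p = 0.98). The value of MF1 pool 1 was the mean of 0.20 with caudal RNA in Cy5 and -2.43 with caudal RNA in Cy3, and without that pool the mean was -0.15. The dye orders gave -0.18 with caudal RNA in Cy5 and -0.50 with caudal RNA in Cy3, and 3 of the 10 arrays were positive. Col9a2, Col14a1 and Col16a1 stood at -0.15, -0.09 and 0.10.

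Col9a3, a chain of the type IX collagen that coats cartilage fibrils, had the highest mean ratio of the members, 0.78 ± 0.28 (limma adjusted p = 0.98), from 4 pools. It had 2.03 and 1.96 in MF1 pools 1 and 2, no value in both dye orders in MF1 pool 3, and 0.31 and -1.19 in the C57 pools. The MF1 values came from the Cy3-labelled caudal RNA, at 4.502 and 3.831, while the partner arrays with caudal RNA in Cy5 gave -0.43 and 0.08. Over all pools the mean was -0.73 with caudal RNA in Cy5 and 2.29 with caudal RNA in Cy3, a gap of -3.02 (Cy5 minus Cy3).

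The network-forming and beaded-filament collagens had 1 of 3 positive ratios and a median of -0.24. Col6a3, of the microfibrillar type VI collagen, stood at 0.04 ± 0.12. Col8a2, a chain of the type VIII collagen of vessel walls and Descemet's membrane, stood at -0.45 ± 0.37, and Col26a1 at -0.24 ± 0.36. Col8a2 gave -1.24 with caudal RNA in Cy5 and 0.05 with caudal RNA in Cy3, and Col26a1 gave -0.03 and -0.77 in that order.

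Fibrillins and fibulins, the scaffold and partner proteins of microfibrils and elastic fibres, had 3 of 4 positive ratios and a median of 0.27, Fbln2 being the exception. Fbn2, the fibrillin that predominates in embryonic microfibrils, had 0.01, 0.99 and 0.15 in the MF1 pools and 0.96 and 0.13 in the C57 pools. All 5 pools were positive, with a mean of 0.46 ± 0.21 (limma adjusted p = 0.98), but the dye orders gave 0.87 with caudal RNA in Cy5 and 0.03 with caudal RNA in Cy3. Fbln1, fibulin-1, had 0.66, 0.54 and -0.35 in the MF1 pools and 0.41 and 0.10 in the C57 pools, positive in 4 of 5 pools, with a mean of 0.27 ± 0.19. Fbln7 stood at 0.28 ± 0.21, with 0.53 when caudal RNA was in Cy5 and -0.12 when it was in Cy3. Without C57 pool 1 Fbn2 was 0.26 and Fbln7 was 0.08. Of the 26 members measured in all 5 pools, 2 were positive in every pool (7.69%, against 5.84% of all such probes), Lama1 and Fbn2, and 2 were negative in every pool (7.69%, against 2.57%), Fbln2 and Col12a1.

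Lum, lumican, a small leucine-rich proteoglycan that binds collagen fibrils, had -0.07, 1.81 and 0.78 in the MF1 pools and 0.25 and 0.97 in the C57 pools. It was positive in 4 of 5 pools and on 9 of 10 arrays, with a mean of 0.72 ± 0.30, a 1.65-fold higher caudal level (limma adjusted p = 0.98). Its ratio was positive in both dye orders, 1.01 with caudal RNA in Cy5 and 0.48 with caudal RNA in Cy3, and its mean was 0.48 without MF1 pool 2. Dcn, decorin, a related proteoglycan, stood at 0.01 ± 0.16.

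Fn1, fibronectin, which cells bind through integrins, was tested with 2 probes. The first had -0.20 and 0.92 in MF1 pools 1 and 3 and -0.30 and 0.32 in the C57 pools, and the second had 0.07, 0.05 and -0.17 in the MF1 pools and 0.35 and -0.14 in the C57 pools. Their means of 0.19 ± 0.25 and 0.04 ± 0.13 did not differ beyond their errors, and both lay near 0.

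**Figure D2:**
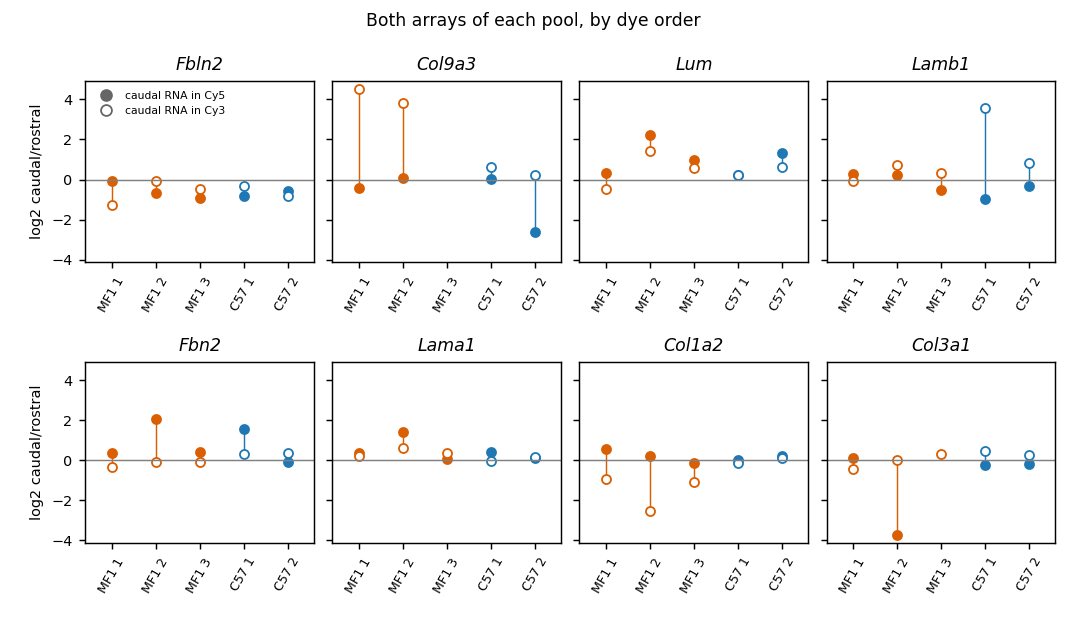
Log2 caudal over rostral ratio (y axis) of 8 matrix genes on each array, by pool (x axis; MF1 in orange, C57 in blue), with filled points for caudal RNA in Cy5 and open points for caudal RNA in Cy3, joined within a pool. All 10 points of Fbln2 lie below 0, whereas the MF1 pools of Col9a3 and C57 pool 1 of Lamb1 have one point far above 0 and its partner near or below 0.

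Set side by side, the dye orders gave opposite signs for 21 of the 37 members (56.8%), against 54.3% of all tested probes. The median gap between the dye orders was 0.36 for the members and 0.30 for all tested probes. A gap of more than 1 was seen for 6 members, and such gaps were not counted over all probes.

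**Figure D3:**
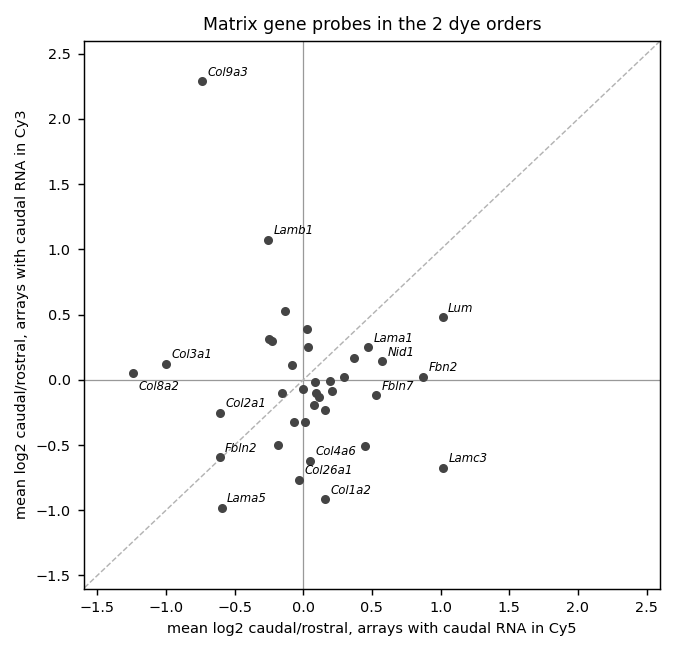
Mean log2 caudal over rostral ratio of each of the 37 matrix probes with caudal RNA in Cy5 (x axis) and with caudal RNA in Cy3 (y axis); the dashed line marks equal values. Fbln2 lies on the line at -0.61 and -0.59, and Col9a3 lies farthest from it, at -0.73 and 2.29.

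The remaining 32 member probes, covering 25 genes with no tested probe, had too few ratios. They were measured on a median of 2 of the 6 MF1 arrays and 4 of the 4 C57 arrays, and 19 of them had both dye orders in both C57 pools. The genes with no tested probe were the fibril-forming Col1a1, Col5a1, Col5a3 and Col24a1, the basement membrane chains Col4a1, Col4a3, Col4a4, Col4a5 and Col15a1, and the fibril-associated Col9a1, Col19a1 and Col22a1. They also included the network chains Col6a1, Col6a2, Col6a4, Col8a1 and Col10a1, the transmembrane collagens Col13a1, Col17a1, Col23a1 and Col25a1, the laminins Lamb2 and Lamb3, and Fbln5 and Sparc. Over the 19 with both C57 pools, the C57 mean was positive for 9 and negative for 10, from -0.88 for Col25a1 to 0.65 for Col5a3. Sparc, a collagen-binding glycoprotein of basement membranes, had ratios on 9 arrays with a median of 0.26: in MF1 it was negative on all 3 arrays with caudal RNA in Cy5 (-0.48, -0.14 and -0.69) and positive on all 3 with caudal RNA in Cy3 (1.02, 0.62 and 0.42). In the C57 pools alone, Col5a3, a chain of type V collagen, had 1.11 and 0.19, Col15a1, of basement membrane zones, 0.52 and 0.28, and Col25a1, a transmembrane collagen of neurons, -1.33 and -0.43. Lamb2, a beta chain of mature basement membranes, had -0.81 and 0.19 there. In MF1, Col15a1 had -1.30 and -1.26 on the 2 arrays of pool 3. Single arrays of MF1 pools 1 and 2 gave it 6.54 and -1.74. Col25a1 had 0.85 and -0.66 on the 2 arrays of MF1 pool 3. Single MF1 arrays gave 1.54 and -1.32 for Col5a3, and -5.24 and -6.07 for Lamb2. These 4 were picked for mention after their values were seen.

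Each strain was then read alone. In MF1, 5 of 37 members (13.5%) had an unadjusted limma p under 0.05, against 6.56% of all probes, and none passed the adjusted threshold (0% of all probes; smallest member adjusted p in limma 0.518). They were Fbln2 at -0.57 ± 0.15, Col1a2 at -0.65 ± 0.23, Col2a1 at -0.67 ± 0.26, Col7a1 at -0.52 ± 0.19 and Col9a3 at 1.996 ± 0.40 (SE, with the spread shared by both strains). All but Col9a3 had the higher rostral level. With only the arrays that held caudal RNA in Cy5, the signs of Col1a2, Col7a1 and Col9a3 turned, at 0.21, 0.68 and -0.18. Without MF1 pool 2 Col1a2 in MF1 was -0.39, and without MF1 pool 3 Col2a1 in MF1 was -0.37. The member median in MF1 was -0.06, against 0.03 over all tested probes.

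In C57, 2 of 37 members (5.41%) had an unadjusted limma p under 0.05, against 1.84% of all probes, and none passed the adjusted threshold (0% of all probes; smallest adjusted p 1). They were Fbln2 at -0.64 ± 0.19 and Lamb1 at 0.78 ± 0.31, and the Lamb1 value turned to -0.63 when only arrays with caudal RNA in Cy5 were used. Without C57 pool 1, Lamb1 was 0.25. The member median in C57 was 0.04, as it was over all tested probes.

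The interaction of region and strain compares the ratios of MF1 with those of C57. Of the 37 members 1 (2.7%) had an unadjusted limma p under 0.05, against 2.38% of all probes, and none passed the adjusted threshold (0% of all probes; smallest adjusted p 0.999). It was Col9a3, with 1.996 for MF1, -0.44 for C57 and a difference of 2.43 ± 0.56 (MF1 minus C57, limma adjusted p = 0.999), and its MF1 value again rested on the arrays described above. Col7a1 came next, with -0.44 and -0.60 in MF1 pools 1 and 2 and 0.15 and 0.24 in the C57 pools, a difference of -0.71 ± 0.27 (limma adjusted p = 0.999). The MF1 pool 2 value of Col7a1 was the mean of 1.70 with caudal RNA in Cy5 and -2.90 with caudal RNA in Cy3. Fbln2 differed by 0.07 ± 0.24.

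The MF1 and C57 pools did not overlap for 8 of 37 members (21.6%), against 16.8% of all probes. MF1 was lower for Col6a3, Col7a1, Col12a1, Col5a2, Col3a1 and Col1a2, and higher for Lama1 and Col9a3. Across the 37 members the MF1 and C57 means had a correlation of 0.08, and across all tested probes one of 0.11; probes share arrays and are not independent. Within MF1 the member ratios of pool 1 and pool 3 had a correlation of -0.53, and those of pool 2 and pool 3 one of 0.54. Over all tested probes these correlations were -0.22 and 0.21. Lama5 (0.82, -2.03 and -2.69 in MF1 pools 1 to 3) and Lamc3 (-1.81, 0.46 and 1.92) had the widest spread over these pools. Correlations without these 2 genes were not computed, so the values cannot be taken to describe the members at large.

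**Figure D4:**
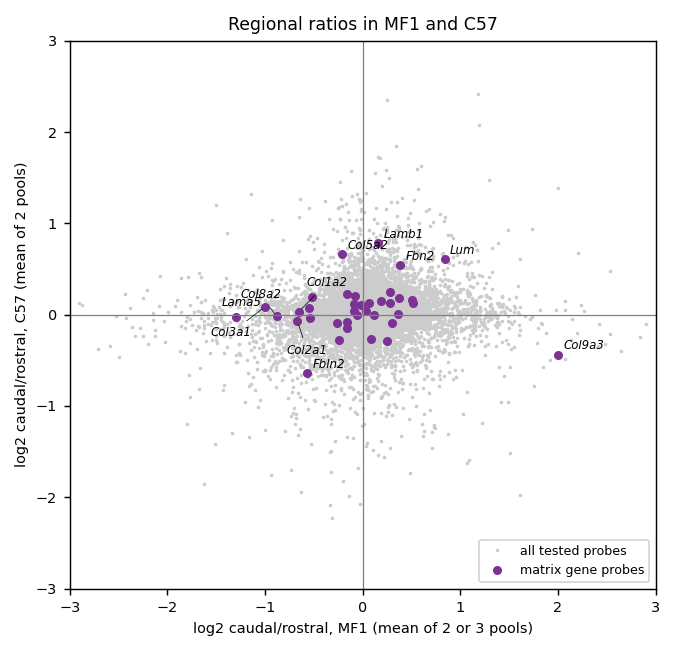
Log2 caudal over rostral ratio in MF1 (x axis, mean of 2 or 3 pools) and in C57 (y axis, mean of 2 pools) for all 11855 tested probes in grey and the 37 matrix probes in purple. Fbln2 is low in both strains, Lum and Fbn2 lie above 0 in both, and Col9a3 lies far to the right at 1.996 in MF1 and -0.44 in C57.

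Genes that act with these proteins were read from lists of collagen processing, matrix receptors and other matrix proteins. Of 57 tested probes, 3 had a positive and 1 a negative ratio at an unadjusted limma p under 0.05, against 2.28% and 2.29% of all probes, and none passed the adjusted threshold. The 14 probes for collagen folding and cross-linking enzymes had a median of -0.01 and none at that p; P3h3, a prolyl 3-hydroxylase family member, stood at -0.36 ± 0.17 and P4ha2, a prolyl 4-hydroxylase subunit, at 0.23 ± 0.18. The 17 probes for matrix receptors had a median of 0.12, with 1 positive at that p. It was Ddr2. That gene, a receptor tyrosine kinase for fibrillar collagen, stood at 0.57 ± 0.17 with 1 probe and at 0.15 ± 0.15 with another, and Sdc4, a heparan sulphate proteoglycan receptor, at 0.36 ± 0.17. The 26 probes for other matrix proteins had a median of 0.03, with 2 positive and 1 negative at that p. Reln, the secreted signal of Cajal-Retzius neurons, stood at -0.68 ± 0.17, and Mfap4, a microfibril-associated glycoprotein, at 0.94 ± 0.27.

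Mfap4 was positive in every pool, with 0.31, 2.12 and 1.08 in MF1 and 0.73 and 0.69 in C57. Reln was negative in every pool that measured it, with -1.29 and -0.75 in MF1 pools 1 and 3 and -0.48 and -0.19 in C57. These lists hold no member, and they were chosen with earlier results of these data known.

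Markers of tissues that could carry matrix RNA were set beside the members. The 12 tested probes for meninges and mesenchyme had a median of -0.02, with 5 positive and 7 negative and none at an unadjusted p under 0.05; Prrx2, a mesenchymal homeobox gene, had -1.37 in MF1 (2 pools) and 0.24 in C57, and Osr1 had 0.07 in MF1 and 0.27 in C57. The 18 endothelial probes had a median of -0.02, with 3 positive and 1 negative at that p. Esm1, an endothelial proteoglycan, had -0.73 in MF1 and -0.71 in C57, whereas Sox18, an endothelial transcription factor, had 2.19 in MF1 (2 pools) and -0.20 in C57. The 6 pericyte and smooth muscle probes had a median of 0.02, with only Acta2 at that p (0.66 ± 0.23), and the 5 cartilage precursor probes had -0.05 and none at that p. The 17 neuroepithelial probes had a median of 0.01, with only a probe for Slc1a3, a glial glutamate transporter, at that p (-0.59 ± 0.14). Another tested Slc1a3 probe stood at -0.20 ± 0.40, with 0.50 in MF1 and -0.90 in C57.

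Over all probes 59.2% were positive, and at an unadjusted p under 0.05 in limma 2.28% were positive and 2.29% negative. All 9 tested blood probes were positive, 3 of them at an unadjusted p under 0.05, with a median of 0.30 and the embryonic globins Hbb-bh1 at 0.46 ± 0.12 and Hbb-y at 0.47 ± 0.16. Choroid plexus and cortical hem markers had 8 of 12 positive, 3 at that p, and a median of 0.19, with Ttr at 1.63 ± 0.16 and Rspo3 at 0.94 ± 0.12. Surface ectoderm markers had 9 of 10 negative, 2 at that p, and a median of -0.14, with Krt18 at -2.71 in MF1 (2 pools) and -0.38 in C57 and Trp63 at -0.85 ± 0.18. Most surface ectoderm markers were thus on the same side as Fbln2. All blood markers and most choroid plexus and hem markers were on the same side as Lum, Lama1 and Fbn2. Trp63 had -1.26 in MF1 and -0.45 in C57, and Fbln2 had -0.57 and -0.64. The part of these tissues in the member ratios was not tested.

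**Figure D5:**
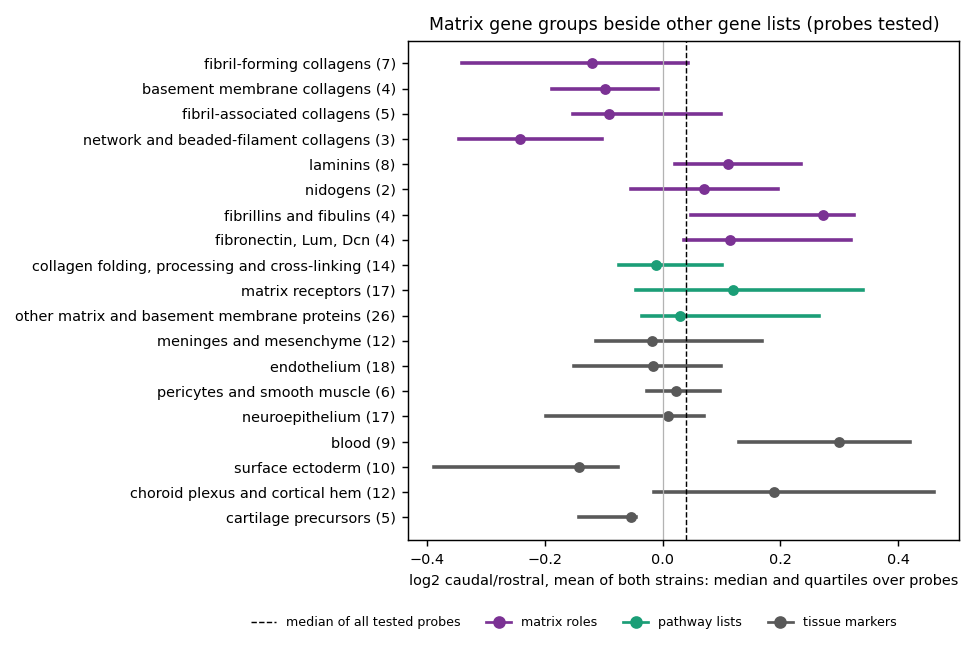
Median log2 caudal over rostral ratio (x axis, mean of both strains; points) and quartiles (lines) of the tested probes of each matrix role, pathway list and tissue marker list, with the number of probes in brackets and the median of all tested probes as a dashed line. Collagen groups have medians of -0.24 to -0.09 and the laminins, fibrillins and fibulins of 0.11 and 0.27, with blood markers at 0.30 and surface ectoderm markers at -0.14.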

How the data were processed

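The data were ratios from 10 two-colour arrays of 5 pools. The authors deposited 1 value table of log2 ratios per array, a unit read from the values; the numerator, array type, scanner, background correction, normalization and probe build were not given in the sources used. Trizol RNA was amplified as cDNA, per the labels' protocols. The design text names 3 sets per strain; a further C57 set was not analysed here.

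The 436 values at a ceiling of 16.61 and nulls were treated as missing, and 232 control spots were left out. Arrays were turned to caudal over rostral, centred on their own median, because pool medians before centring ranged from -0.20 to 0.37, and averaged per pool. Of 21766 probes, 16632 had 1 gene symbol, 139 several and 4995 none; 15952 symbols, all 69 of the members included, were matched to RefSeq genes of GRCm38.p6 and none changed. Of the 61 member genes, 42 had a promoter in the RefSeq table.

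Pool values were fitted in limma 3.58.1 (R 4.3.3; lmFit, eBayes) with a coefficient per strain, 3 residual degrees of freedom for a probe in all 5 pools and 2.58 prior ones, two-sided, with Benjamini-Hochberg adjustment over the 11855 tested probes at 0.05. Errors are moderated SEs. Sign changes of 5 pools allow no two-sided exact p under 0.0625. P-values measure the spread between pools. The code was checked on simulated data with less noise than these arrays and larger changes than most member ratios. That check cannot show how the fit performs at the noise seen here. Values in every pool are given for the 6 member probes with the lowest p on each side, the 2 of smallest p for the strain difference, genes with more than 1 tested probe and core basement membrane and fibril chains; of each other list, at most the 2 genes of smallest p were named. Members and lists were chosen with earlier results of these data known. Alternatives covered centring, scaling, missing values, dye order, ceiling values, probes of a gene, variance model, threshold, replicate block and left-out pools. Plots used matplotlib 3.10.9 (Python 3.11.15).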

Additional observations from a re-analysis of the deposited data

Results flagged for a closer look

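For 3 of the 37 tested members (8.11%), every MF1 pool measured in both dye orders lay on one side of 0 and every C57 pool on the other, as did 4.78% of all tested probes. Col6a3, the third chain of type VI collagen, had -0.07, -0.23 and -0.17 in the MF1 pools and 0.42 and 0.04 in the C57 pools, a difference of -0.39 ± 0.25 (MF1 minus C57). Col7a1, of anchoring fibrils, had -0.52 for MF1 and 0.19 for C57, which differed by -0.71 ± 0.27. Col3a1, of type III collagen, had -1.002 for MF1 and 0.09 for C57, which differed by -1.09 ± 0.62. In the pools compared all 3 were negative in MF1 and positive in C57. Another Col6a3 probe, with too few MF1 ratios to be tested, had -1.03 and 0.13 in the C57 pools, a mean of -0.45. None passed the limma adjusted threshold for the difference, nor did any probe (smallest adjusted p 0.999); 282 probes, none of these 3, had an unadjusted p under 0.05. Col7a1 and Col3a1 each had 2 MF1 pools in this comparison, and in both the lowest pool, MF1 pool 2, held 1 array far below its partner. MF1 pool 3 had 1 array for each gene and it was positive, at 0.57 for Col7a1 and 0.30 for Col3a1. With pools of 1 dye order kept, Col7a1 in MF1 was -0.16. The groups of 2 and 3 pools are too small to look for a single outlying pool.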

How the results depend on the processing

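For the mean of both strains Fbln2 ranged from -0.74 to -0.56 over 19 alternatives, and its unadjusted limma p was under 0.05 in all 19. No member passed the limma adjusted threshold under any alternative. Over all probes the mean of both strains gave 1 call with arrays scaled and 8 with arrays fitted singly with a dye term, and C57 gave 2 and 2. Members at a limma p under 0.05 for the mean numbered 2 of 37 in the main fit, against 542 of 11855 probes. Scaled, they numbered 4 of 37 (727 of 11855 probes), and fitted singly 4 of 37 (489 of 11855). With caudal RNA in Cy5 only there were 5 of 45 (1057 of 14508 probes), and in Cy3 only 7 of 43 (1652 of 15313). Without MF1 pool 1 there were 5 of 27 (1013 of 9408), and without MF1 pool 2 there was 1 of 33 (385 of 10697). Without MF1 pool 3 there were 4 of 29 (456 of 9598). For C57, members at that p numbered 2 of 37, and 1 of 46 with probes in 3 pools kept. They numbered 1 of 55 with pools of 1 dye order kept, 0 of 45 with Cy5 only and 1 of 38 with ceiling values kept. With an MF1 pool left out they numbered 1 to 2. For MF1 they numbered 5 of 37, 2 of 37 scaled, 3 of 55 with 1 dye order kept and 3 of 43 with Cy3 only. There were 2 of 37 with MF1 fitted alone and 2 to 7 with an MF1 pool left out. Under these settings all probes were not counted for C57 or MF1. These member counts thus have no share of all probes beside them and cannot be read as a result about the members. Positive members numbered 32 of 55 with 1 dye order kept, and the positive share of all probes was not counted there.

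The member median for the mean was -0.092 with Cy3 only, and for MF1 0.041 with Cy5 only. For C57 it was 0.134 uncentred, -0.00075 centred on probes measured on all arrays, 0.092 scaled, 0.067 with 3 pools, 0.063 with 1 dye order, 0.0875 with Cy5 only, 0.0705 with Cy3 only, 0.055 with ceiling values and 0.031 to 0.093 with a pool left out. Signs turned with Cy5 only for Col9a3 (mean -0.73, MF1 -0.18), Lamb1 in C57 (-0.63), Col7a1 in MF1 (0.68) and Col1a2 in MF1 (0.21); 11 of 37 members turned with Cy5 only and 10 with Cy3 only, and at most 6 with any other choice. The cause was not tested.

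The strains share pool numbers, but deviations from the strain mean of same-numbered pools had correlations of 0.15 and -0.02. With only 2 C57 pools, their deviations are equal and opposite by construction, so this check cannot decide whether the numbers mark pairs. The main fit did not take them as pairs. With a replicate block Fbln2 was -0.63. Of 26 members in that fit, 4 had a limma p under 0.05 for the mean, against 486 of 8924 probes, and 1 for C57. Missing ratios in MF1, in C57 or in both leave 32 member probes untested. Sparc, for example, had ratios on 6 MF1 arrays but only 3 C57 arrays. No intensities were given, so brightness could not be weighed.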

Other observations

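The role groups were also read by strain, with no test. Fibril-forming collagens had a median of -0.21 in MF1 and -0.07 in C57, and laminins one of 0.14 in MF1 and 0.08 in C57. Network and beaded-filament collagens had -0.55 in MF1 and 0.07 in C57, and basement membrane collagens -0.17 in MF1 and 0.10 in C57. The last groups held only 3 and 4 tested probes. The network MF1 median was the value of Col26a1, which had 0.46 and -1.57 in MF1 pools 2 and 3. Col8a2 had 0.08 and -1.84 in MF1 pools 1 and 3, and Col6a3 was -0.16 in MF1.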
